A study of Arabidopsis thaliana with 8 samples.

Results

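The subject is a set of 170 probe sets, of 22746 non-control probe sets on the array, whose signal was lower on every array of the yabby mutants than on every array of wild type. Shoot apices of Arabidopsis thaliana seedlings in the Ler background were sampled 14 days after sowing, after growth under short days, and total RNA was hybridised to 1-colour Affymetrix arrays. There were 4 arrays of wild type, 2 of fil-8 yab3-2 (the double mutant) and 2 of fil-8 yab3-2 yab5-1 (the triple mutant). All mutant arrays therefore carry the fil-8 and yab3-2 alleles, and the triple mutant adds yab5-1. No label states that the arrays of a group hold RNA of separate plants or pools, and the spread behind each p-value is that between these arrays and may be technical.

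Members were chosen on the measured values. The highest of the 4 mutant arrays had to lie below the lowest of the 4 wild-type arrays, the mean of the mutant arrays had to be lower by 1 log2 unit or more, and every wild-type array had to exceed a log2 signal of 4. Of the 22746 probe sets, 679 (2.99%) met the first condition, 206 also the second and 182 all 3. The selection then set 12 of the 182 aside, and 170 members remained. YAB3 itself, MYC3 and the lipid-transfer genes AT4G22490, AT5G59330 and AT5G55450 were set aside by name. So were 9 probe sets at or below 4 in the triple mutant and above 6 on all wild-type arrays, AT4G22490 and AT5G55450 among them. The set thus leaves out probe sets that went from above 6 in wild type to 4 or below in the triple mutant. HCF101 and CIL were also named for removal, but neither met the conditions.

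FIL, YAB3 and YAB5 are YABBY transcription factors. They are made in the abaxial domain of young lateral organs, where they promote growth of the leaf lamina and help to keep shoot meristem genes off, and they act with co-repressors such as SEU. In bulk samples such as these, fewer cells of a type and less RNA per cell cannot be told apart. Whether a member needs FIL and YAB3 for its expression was not tested.

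The annotation used here names 1 gene for 78 members and several for 1 member, and 91 members are unnamed here. The 78 are 78 different genes. YAB3, which checks the labels, read 8.46, 8.35, 9.48 and 8.91 log2 units on wild-type arrays 1 to 4. It read 3.35 and 4.99 on the double mutant arrays and 4.40 and 5.50 on the triple mutant arrays. Wild-type signals of YAB5 were 7.52, 7.17, 5.51 and 5.32, against 6.03 and 5.60 in the double and 5.28 and 5.02 in the triple mutant, so the YAB5 signal alone does not mark the triple mutant. FIL is not analysed here.

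Wild-type arrays 1 and 2 stood apart from all other arrays. Of 45 bacterial and phage spike-in control probe sets, 42 were higher on both of them than on every other array. Correlations across 13888 tested probe sets were at least 0.970 within the pairs 1 and 2, and 3 and 4, and 0.861 to 0.888 between them. In control transcripts the mean excess of 3′ over 5′ signal, in log2 units, was 1.21 for wild-type array 1, 1.44 for array 2 and 1.41 for double mutant array 1, against 0.361 to 0.589 on the other 5 arrays. The median over the members and the differences of some genes are therefore also given against each wild-type pair. Where no pair is named, a mean difference from wild type is from all 4 wild-type arrays.

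As a set, the members were lower in the mutants by a median of 1.31 log2 units, a 2.49-fold difference, with an interquartile range of -1.89 to -1.12 and a lowest value of -4.08. The selection required this direction, so these values describe the members and carry no test. Over the 13888 probe sets with a log2 signal above 4 on at least 2 arrays the same median was -0.01. Most members lay close to the size limit: 104 differed by less than 1.5 log2 units and 35 by 2 or more. The gap between the lowest wild-type and the highest mutant array had a median of 0.275 log2 units. It was at least 1 in 14 members and under 0.1 in 48.

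**Figure D1:**
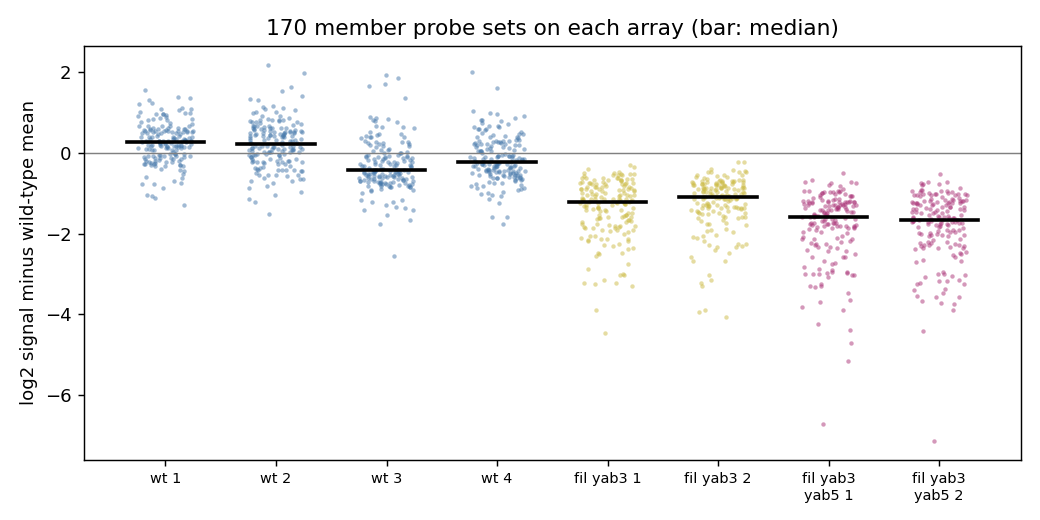
Signal of the 170 members on each of the 8 arrays, as log2 signal minus each member's mean over the 4 wild-type arrays; each point is a member and each bar the median on that array. Medians were 0.27 and 0.22 on wild-type arrays 1 and 2, -0.44 and -0.24 on arrays 3 and 4, -1.22 and -1.09 in the double mutant, and -1.60 and -1.66 in the triple.

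The limit of -1 cut through a continuum. Just inside it were AT1G55270, a kelch-repeat F-box gene, at -1.004, AT5G35170, an adenylate kinase family gene, at -1.004 and AT1G73760, a RING finger gene, at -1.01. Just outside were AT5G27290, AT1G28250 and AT1G62780, each at -0.98.

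The member with the largest difference among named genes was AT3G15570, of the NPH3 family of phototropic response proteins. It read 8.17, 8.99, 4.25 and 5.80 on the wild-type arrays, 3.51 and 2.87 in the double and 2.10 and 2.92 in the triple mutant. All mutant arrays were below 4, so its signal in them was at least 6.98-fold below the mean of the 4 wild-type arrays. The wild-type arrays spread over 4.73 log2 units, with arrays 1 and 2 high, and the bound was 23.9-fold against these and 2.04-fold against arrays 3 and 4.

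AT5G05960 encodes a protein of the lipid-transfer and seed-storage family, small secreted proteins that bind lipids. Its wild-type signals were 9.27, 8.29, 7.06 and 8.49, against 5.25 and 4.20 in the double and 4.03 and 5.26 in the triple mutant. The groups were 1.80 log2 units apart at their nearest arrays. The mean difference of -3.59 was a 12.1-fold lower signal, and against wild-type arrays 3 and 4 alone it was 8.52-fold.

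AT5G16030, for which no function is stated here, was among the 6 brightest named members. Its wild-type signals of 11.43, 12.54, 10.49 and 10.09 stood against 8.10 and 8.73 in the double and 7.45 and 7.78 in the triple mutant. No mutant array came within 1.36 log2 units of wild type.

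The protein kinase gene AT1G54820 read 10.36, 10.48, 8.09 and 8.63 in wild type, 7.21 and 6.92 in the double and 6.32 and 6.21 in the triple mutant. Wild-type arrays 1 and 2 were the high ones here too, and the difference was -3.76 against them and -1.70 against arrays 3 and 4.

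The DNA glycosylase family gene AT5G44680 also depended on the wild-type pair. Arrays 1 and 2 read 11.12 and 11.52, arrays 3 and 4 both read 7.78, and the mutants read 7.26 and 6.52 (double) and 7.12 and 6.59 (triple). Its difference was -4.45 against arrays 1 and 2 and -0.91 against arrays 3 and 4. AT3G55710, a UDP-glycosyltransferase gene, read 7.17, 6.93, 5.08 and 4.26 in wild type and 3.29 to 3.59 on the mutant arrays, at least 3.63-fold lower. That bound was 8.27-fold against arrays 1 and 2 and 1.60-fold against arrays 3 and 4.

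AT5G22390 read 8.48, 8.76, 6.08 and 5.65 in wild type, 5.42 and 5.48 in the double and 4.26 and 4.17 in the triple mutant. AT3G14760 followed the same order, with 8.49, 8.76, 6.64 and 6.68 in wild type, 5.78 and 5.68 in the double and 4.63 and 5.10 in the triple mutant. In both genes wild-type arrays 1 and 2 were highest, arrays 3 and 4 next and the triple mutant arrays lowest.

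AT5G05250 read 7.04, 4.92, 5.21 and 5.51 in wild type and 3.30 to 3.97 on the mutant arrays, so it was at least 3.18-fold lower, and at least 2.56-fold lower against arrays 3 and 4. AT1G12080, a gene related to vacuolar calcium-binding proteins, read 6.33, 6.12, 8.04 and 6.17 in wild type, 5.03 and 6.03 in the double and 4.15 and 2.25 in the triple mutant. Its double mutant array 2 lay only 0.09 log2 units under the lowest wild-type array.

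**Figure D2:**
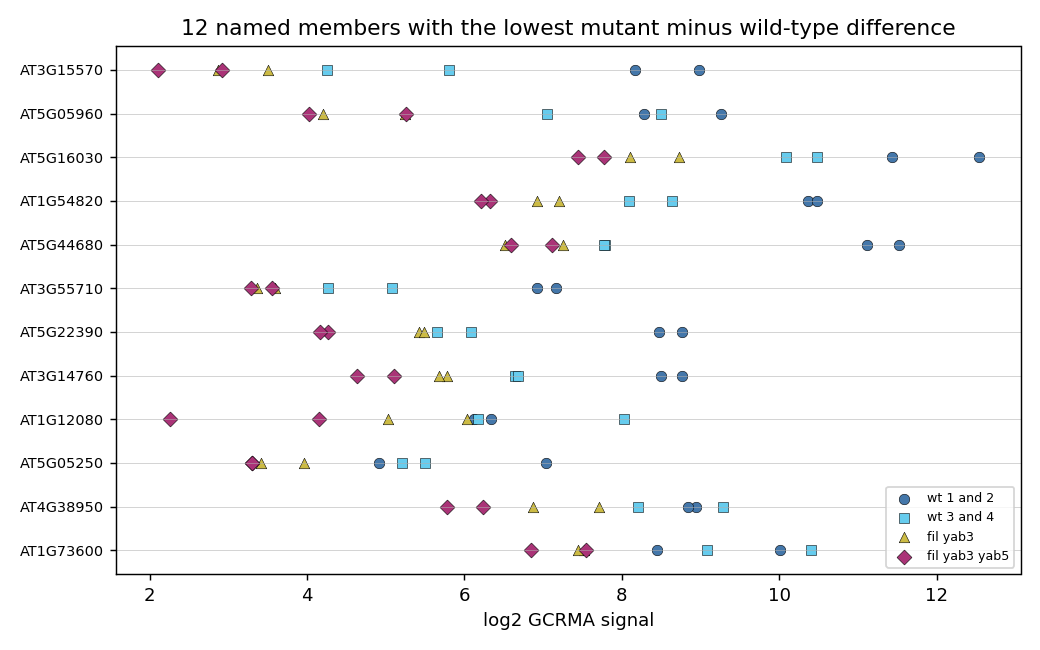
Log2 GCRMA signal on each array for the 12 named members with the largest difference; circles are wild-type arrays 1 and 2, squares wild-type arrays 3 and 4, triangles the double and diamonds the triple mutant. The squares lie to the left of the circles for AT3G15570, AT5G44680, AT3G55710, AT5G22390, AT1G54820, AT3G14760 and AT5G16030. For the other genes, AT4G38950 and AT1G73600 among them, the wild-type arrays mix.

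Members of known biochemical roles were read together after their names had been seen, so these groups describe and carry no test. The lipid genes included both methyltransferases of this set that act in phosphocholine synthesis. PMEAMT, a phosphoethanolamine N-methyltransferase, read 11.57, 11.38, 10.01 and 10.67 in wild type, 9.36 and 9.23 in the double and 9.15 and 9.17 in the triple mutant. AT1G73600, of the same enzyme family, read 10.01, 8.45, 9.09 and 10.40 in wild type, 7.53 and 7.45 in the double and 7.54 and 6.84 in the triple mutant. They were 3.20-fold and 4.43-fold lower in the mutants, and 2.16-fold and 5.30-fold lower against wild-type arrays 3 and 4 alone. The 4 mutant arrays of PMEAMT lay within 9.15 to 9.36, and triple minus double was -0.13 ± 0.49 (SE, limma adjusted p = 1).

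AT1G55690, of the Sec14-like phosphatidylinositol transfer family, was among the steadiest members in wild type, at 8.06, 8.12, 8.38 and 8.58. It read 5.72 and 6.83 in the double and 6.29 and 6.25 in the triple mutant, 4.03-fold lower on average and 1.22 log2 units apart at the nearest arrays. AT4G13840 (CER26), which takes part in elongation of cuticular wax precursors, read 9.61, 9.46, 9.11 and 8.65 in wild type, 7.29 and 8.56 in the double and 8.0 and 8.17 in the triple mutant. The GDSL lipase family gene AT4G18970, the brightest named member, read 11.57, 11.63, 10.46 and 11.10 in wild type, 10.26 and 10.41 in the double and 9.85 and 9.58 in the triple mutant. These last 2 separated from wild type by only 0.09 and 0.05 log2 units.

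Among 4 genes linked to microtubules, the kinesin gene AT4G38950 read 8.94, 8.85, 8.20 and 9.29 in wild type, 7.71 and 6.88 in the double and 5.78 and 6.24 in the triple mutant. The kinesin gene AT3G49650 read 6.89, 7.47, 5.96 and 6.39, then 5.63 and 5.68, and 4.85 and 4.84. The gene listed as iqd21, of a calmodulin-binding family with members on microtubules, read 10.12, 10.42, 9.22 and 9.51, then 8.46 and 8.39, and 6.53 and 7.60. None of these 3 genes passed the test between the mutants (limma adjusted p = 0.407, 0.783 and 0.451, in this order). In all 3 both triple mutant arrays lay below both double mutant arrays, as in 51.8% of all members and 27.4% of all tested probe sets. The ARM-repeat gene AT1G27210 did not show that order, at 7.25 and 7.99 in the double and 7.30 and 7.68 in the triple mutant, against 8.41 to 9.42 in wild type.

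The 6 protein kinase genes differed by -2.73 to -1.05, with a median of -1.14. Against wild-type arrays 3 and 4 alone the median was -0.93, and 3 of the 6 reached -1. EMS1, a leucine-rich repeat receptor kinase known from anther cell fate, read 7.57, 8.22, 7.74 and 7.90 in wild type, 7.21 and 7.09 in the double and 6.52 and 6.13 in the triple mutant. Its difference was similar against both wild-type pairs, -1.16 and -1.08. The receptor kinase gene AT5G49760 read 8.75, 9.32, 7.70 and 8.41 in wild type and 7.36 to 7.64 on the mutant arrays, and its difference was -1.54 against wild-type arrays 1 and 2 and -0.55 against arrays 3 and 4. The AGC kinase gene AT3G23310 went from -1.92 to -0.44 in the same way, while AT4G34500 stayed at -1.14 and -1.17. AT2G18890 differed by -1.11.

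Both pentatricopeptide-repeat genes of plastid RNA editing in the set, CRR21 and CRR28, act on transcripts of the chloroplast NADH dehydrogenase-like complex. CRR21 read 8.01, 8.04, 6.76 and 6.88 in wild type, 6.55 and 6.75 in the double and 5.69 and 5.43 in the triple mutant. CRR28 read 5.93, 4.85, 4.56 and 4.66, then 4.45 and 4.46, and 3.59 and 3.20. In both genes the triple mutant arrays were the lowest, but neither gene passed the test between the mutants (limma adjusted p = 0.625 and 0.587). The nearer double mutant array lay 0.02 (CRR21) and 0.10 (CRR28) log2 units under the lowest wild-type array. CRR21 differed from all 4 wild-type arrays by -1.32 and CRR28 by -1.07. Against wild-type arrays 3 and 4 alone their median difference was -0.70, and neither reached -1. CRR28 was close to background, with both triple mutant arrays below 4, so its differences that include these arrays are uncertain in size. In the double mutant it differed from wild type by -0.54.

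The set held 2 genes of the invertase and pectin methylesterase inhibitor family, whose products restrain sugar cleavage or wall pectin changes. AT2G01610 read 7.74, 7.50, 6.32 and 6.44 in wild type, 5.32 and 5.09 in the double and 6.10 and 5.99 in the triple mutant, where it was nearer to wild type than in the double mutant. AT5G20740 read 5.90, 5.48, 5.07 and 5.07, then 3.58 and 4.64, and 4.24 and 3.69. Chromatin was represented by the histone H2B gene AT2G37470, at 8.47, 8.33, 8.24 and 7.69 in wild type, 7.65 and 7.48 in the double and 6.13 and 5.70 in the triple mutant, and by the linker histone family gene HON4, which differed by -1.09.

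Of the protein turnover genes, the M48 peptidase family gene AT3G27110 read 9.64, 10.09, 8.71 and 9.29 in wild type and 7.42 to 8.15 on the mutant arrays. UBP21, a ubiquitin-specific protease, read 8.24, 7.35, 7.96 and 8.63 in wild type, 7.32 and 6.90 in the double and 6.99 and 6.81 in the triple mutant. Of the remaining 52 named genes, no role group is given here.

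Some members were steady in wild type. AT1G55690 was 1 of the 6 named members with the smallest wild-type range, and the other 5 were AT1G66330 (10.71 to 11.06), AT1G18660 (9.97 to 10.33), AT2G38780 (9.98 to 10.34), the copine family gene AT1G67800 (7.37 to 7.77) and AT2G39420 (5.84 to 6.26). AT1G18660 lay at 9.11 and 9.13 in the double and 8.93 and 8.88 in the triple mutant, a gap of 0.84 log2 units. AT1G67800 lay at 6.56 and 6.48 in the double and 5.69 and 6.09 in the triple mutant, a gap of 0.81. These genes were picked for a small wild-type range, and every member had to differ by 1 log2 unit or more. A difference larger than the spread among the wild-type arrays therefore followed from the selection. AT2G39420 had almost no gap, with double mutant array 2 at 5.82.

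The members were compared with each wild-type pair. Against wild-type arrays 1 and 2 their median difference was -1.61, and against arrays 3 and 4 it was -1.22. A difference of -1 or less held against both pairs in 91 members, against arrays 1 and 2 only in 63 and against arrays 3 and 4 only in 16. Of the 78 named members, 36 kept it against both. Over all tested probe sets such a difference was present against arrays 1 and 2 in 10.3% and against arrays 3 and 4 in 4.02%. The lean towards arrays 1 and 2 was thus not particular to the members, and nothing is read from these counts.

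**Figure D3:**
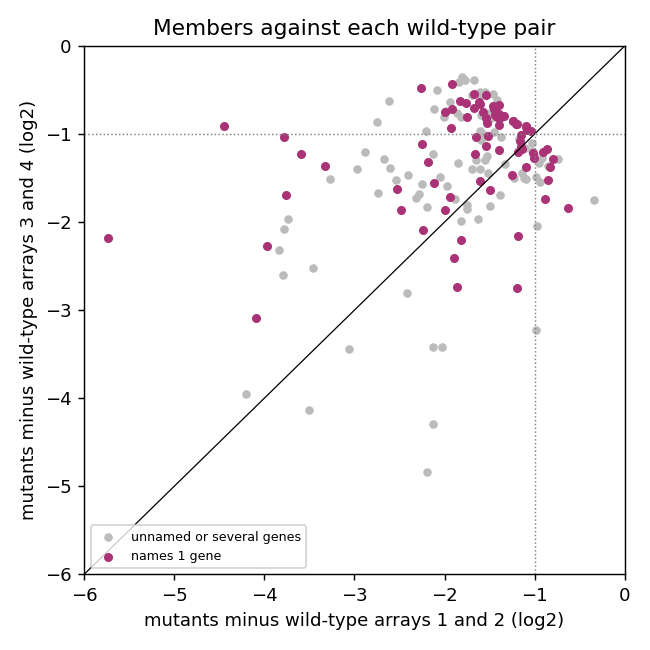
Difference of the 4 mutant arrays from wild-type arrays 1 and 2 (horizontal) and from wild-type arrays 3 and 4 (vertical), in log2 units, for each of the 170 members; the solid line marks equal values and the dotted lines mark -1. Most points lie above the line, where the difference is larger against arrays 1 and 2, and the median was -1.61 against these and -1.22 against arrays 3 and 4.

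Within wild type, both arrays 1 and 2 exceeded both arrays 3 and 4 in 89 members (52.4%) and the reverse held in 23. Over all tested probe sets the former share was 29.2%. The members were chosen on these same wild-type values, so both shares are given as a description and carry no test. The lowest wild-type value came from array 3 or 4 in 125 of the 170. No share over all tested probe sets is given for this count or for the 23, so nothing is read from them. The 2 tested mesophyll markers, RCA and PRK of 11 listed, had a summed signal (the log2 of the sum of linear signals) of 15.6 and 15.7 on wild-type arrays 2 and 1, 15.1 on each of arrays 3 and 4, 15.0 to 15.1 in the double and 15.0 to 15.1 in the triple mutant. Neither marker was a member, and neither lay at or below 4 on any array. The part of mesophyll content in the differences was not tested.

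Next, the contrast that the selection did not use directly, the triple against the double mutant, was tested with limma across all 13888 probe sets. The selection limited only the mean and the maximum of the 4 mutant arrays, apart from the removal of probe sets near background in the triple mutant. Members were lower in the triple mutant by a median of 0.38 log2 units, with 139 of 170 differences below 0, beside a median of -0.03 over all tested probe sets. Differences of -1 or less from wild type were also more frequent over all tested probe sets in the triple mutant (7.37%) than in the double mutant (3.63%). A mean over both mutants also admitted members with a small drop in the double and a deep one in the triple mutant. AT3G56810, for example, differed from wild type by -0.68 in the double and -2.98 in the triple mutant. The selection is therefore not independent of this contrast, and the counts of members by direction describe and carry no test.

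Only 2 of the 170 members passed, both lower in the triple mutant. Over all tested probe sets 0.677% were called, 0.13% lower and 0.547% higher. At an unadjusted p under 0.05, 36 members were lower and none higher, beside 5.06% of all tested probe sets lower and 3.52% higher. Both triple mutant arrays lay below both double mutant arrays in 88 members and above them in 9, beside 27.4% and 20.2% of all tested probe sets.

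The first of the 2 was a probe set unnamed here, the brightest of all members. It read 14.48, 14.51, 13.99 and 14.50 in wild type, 12.82 and 13.45 in the double and 7.65 and 7.23 in the triple mutant. Its signal fell by 5.69 ± 0.31 (SE) log2 units between the mutants (limma adjusted p = 0.000161). The other was AT3G56810, at 7.02, 6.96, 7.08 and 6.45 in wild type, 6.40 and 6.0 in the double and 4.16 and 3.63 in the triple mutant. It fell by 2.30 ± 0.31 between the mutants (limma adjusted p = 0.0234), and this call was lost without wild-type array 1 or any 1 mutant array (adjusted p = 0.0532 to 0.433). The nearer double mutant array of AT3G56810 lay 0.05 log2 units under the lowest wild-type array.

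Other members low mainly in the triple mutant did not pass. AT2G38780 differed by -1.53 ± 0.25 (SE, limma adjusted p = 0.0526), AT2G37470 by -1.65 ± 0.31 (adjusted p = 0.0933), the cupredoxin family gene AT1G72230 by -1.89 ± 0.40 (adjusted p = 0.144) and AT1G12080 by -2.33 ± 0.83 (adjusted p = 0.452). In AT1G72230 both double mutant arrays read 7.02, against 7.40 to 8.48 in wild type and 5.43 and 4.82 in the triple mutant.

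At the other end AT2G01610 was higher in the triple than in the double mutant by 0.84 ± 0.50 (adjusted p = 0.823), the 2-oxoglutarate-dependent dioxygenase family gene AT1G06640 by 0.70 and AT1G15410 by 0.55. None of these 3 passed, which does not show that the mutants were alike in them. The LysM-domain gene AT5G62150 read 4.03, 4.21, 5.65 and 5.70 in wild type and 2.57 to 3.33 on the mutant arrays, all below 4, so no difference between the mutants is given. It was at least 1.86-fold lower than wild type, and was among the 23 members with both wild-type arrays 3 and 4 above both arrays 1 and 2. The bound was 3.20-fold against arrays 3 and 4 and 1.08-fold against arrays 1 and 2.

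**Figure D4:**
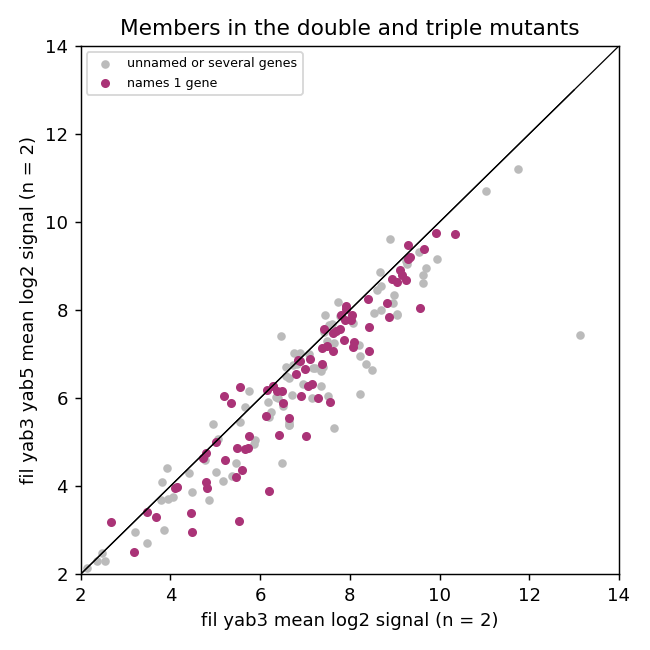
Mean log2 signal of each of the 170 members in the double mutant (horizontal, 2 arrays) and the triple mutant (vertical, 2 arrays); the line marks equal means. Most points lie under the line, and the isolated point near 13 on the horizontal axis is the brightest member, which is unnamed here.

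Against wild type, the contrast that chose the members, limma called 2 of the 170 in the double mutant, beside 0.072% of all tested probe sets called lower, and 58 in the triple mutant, beside 1.66%. Nothing is read from these counts. A difference of -1 or less was present for 109 members in the double, 158 in the triple and 97 in both mutants. Both mutants share the wild-type arrays. With wild-type arrays 1 and 2 left out the calls were 4 and 79, beside 0.198% and 5.12% of all tested probe sets.

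Signal remained in most members, which the selection favoured. It had removed 9 probe sets at or below 4 in the triple mutant and above 6 on all wild-type arrays. In 138 every array exceeded a log2 signal of 4, in 11 all 4 mutant arrays lay at or below 4, and in 17 both triple mutant arrays did. Unnamed members had wild-type means of 5.07 to 14.37 and a median difference of -1.42, with 21 at -2 or less.

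Of 118 genes in 13 lists of YABBY genes and partners, polarity, lamina, meristem and cell type genes, 22 had a probe set that names them alone and 17 were tested. None of the 22 was a member, YAB3 having been set aside by name, and the unnamed members could not be checked against the lists. Of these 17, YAB3 was called lower in both mutants and MUTE, a regulator of the stomatal lineage, lower in the triple mutant, and none was called higher (limma adjusted p under 0.05). MUTE was close to background, at 4.04 to 4.55 in wild type, 4.60 and 4.64 in the double and 2.82 and 3.33 in the triple mutant, so in the triple mutant it was at least 1.27-fold lower (limma adjusted p = 0.0306). The lamina growth gene NGA2 differed by -1.61 ± 0.98 (double, adjusted p = 0.785) and by -2.08 ± 0.98 (triple, adjusted p = 0.293). Its wild-type signal was 7.96 and 7.52 on arrays 1 and 2 but 4.65 and 4.89 on arrays 3 and 4, against which the differences were -0.12 and -0.60. SEU differed by -0.32 ± 0.33 and 0.03 ± 0.33. The 3 tested trichome genes had a summed log2 signal of 7.17 to 8.51 in wild type and 7.68 to 7.88 in the double mutant. In the triple mutant it was 6.30 to 6.62. Of the 3, GIS was higher in the double mutant than in wild type by 1.67 (limma adjusted p = 0.315). SIM and TRY differed by -0.18 and -0.70 there. The summed signal of the 3 tested stomatal genes was 8.87 to 9.59, 8.50 to 9.03 and 7.75 to 9.11 in the same groups. The root gene PYK10 read 11.7 to 12.95 in wild type, 12.6 to 13.3 in the double and 13.3 to 13.9 in the triple mutant. Their part in the members' signals was not tested.

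The named members lay on all 5 chromosomes, and the other members have no position here. Chromosomes 1 to 5 held 24, 6, 15, 9 and 24 of the 78 named members, or 30.8%, 7.69%, 19.2%, 11.5% and 30.8%, beside 26.3%, 14.5%, 20.9%, 14.3% and 24.0% of the 7324 named genes tested. Within 250 protein-coding genes on either side, no named member neighboured FIL or YAB3 and 1, AT2G28570, neighboured YAB5, where 1.9%, 0.847% and 1.79% of named tested genes lie. Of the named members, only AT5G05200 and AT5G05250 lay within 5 genes of each other.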

How the data were processed

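The authors deposited a log2 value per probe set and array, 22810 rows in all, made by GCRMA under R 2.7.2 according to the submitters' processing notes, with settings not stated there. The values themselves show the log2 scale and span 2.10 to 15.76. Of 22746 rows that are no controls, 13888 exceeded 4 on at least 2 arrays and entered the fit, which was made with limma 3.58.1 (R 4.3.3, lmFit with eBayes, two-sided tests). It held the 8 arrays as 3 groups with 5 residual degrees of freedom, and p-values were Benjamini-Hochberg adjusted over all 13888 with a threshold of 0.05. Where all arrays of a mutant lay at or below 4, the fold is a lower bound, the wild-type mean against 4. Gene names came from the platform annotation through gene IDs, and all 78 single-gene members matched the TAIR10.1 table, of which no coordinates are printed. Precision is limited by the number of arrays.

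The members and lists were chosen with earlier results of these data known. Genes named are the 12 members with the largest difference, the 6 brightest and 6 steadiest in wild type, those called or most different between the mutants, those next to the size limit, neighbours and names matching role words. The gene table holds few such words, so only UBP21 and PMEAMT matched, and role groups were formed after the names were read, from background knowledge. In a simulation of the comparison between the mutants, with 200 changes among the 13888, the fit recovered 4.5% of changes of 1 log2 unit, 35.8% of 2 and 80.3% of 4, and 3.6% of its calls were false. Same-numbered double and triple mutant arrays deviated from their group means with a correlation of 0.004, so the numbers were not taken to pair arrays. Matplotlib 3.10.9 drew the figures.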

Additional observations from a re-analysis of the deposited data

Results flagged for a closer look

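AT1G12080 read 8.04 on wild-type array 3, far from the other wild-type arrays at 6.12 to 6.33. This was the only one of 47 named genes so flagged over the 4 wild-type arrays, where chance flags about 1 in 20. The effects of the mutants differed by the limma test in the brightest member, a probe set unnamed here, with a triple minus double difference of -5.69 log2 units, and in AT3G56810, with one of -2.30.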

How the results depend on the processing

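The number of members was 464 with a mean difference of -0.5 or less, 35 with -2 or less and 423 when only wild-type arrays 3 and 4 were used, which kept 105 of the 170. Leaving out 1 array gave 154 to 318 members, with 318 when wild-type array 3 was dropped, 256 when array 4 was and 289 when double mutant array 2 was. In the set of 423, an alternative chosen after seeing the data, the median of wild-type arrays 1 and 2 minus arrays 3 and 4 was -1.19, against 0.54 in the 170. Requiring arrays 1 and 2 to exceed the mutants removes such probe sets by construction. The set of 423 was chosen on high values of arrays 3 and 4 alone, which also lowers its -1.19 by construction. The median difference from wild type was -1.61 against wild-type arrays 1 and 2 and -1.22 against arrays 3 and 4, and leaving out 1 array gave -1.44 to -1.25. The median difference between the mutants was -0.50 to -0.35 without 1 mutant array.

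Members called between the mutants numbered 9 with array weights, 9 with wild-type arrays 1 and 2 as a group of their own and 4 without these arrays (chosen after seeing the data). They numbered 1 without a filter, 1 with only the mutant arrays fitted and 1 to 2 without 1 array, where each mutant array left out gave 1. Over all tested probe sets the calls numbered 94, against 284, 233, 143, 144 and 66 under the first 5 of these alternatives in turn, 55 with a filter at 6 and 11 without either triple mutant array. The cause was not tested. All calls among members were lower in the triple mutant, a direction that the selection on a mean over both mutants favoured. The brightest member passed under every alternative run (adjusted p from 3.52e-05 to 0.0232). AT3G56810 failed under 7 of 19, with adjusted p of 0.0567 without a filter and 0.092 with only the mutant arrays. With the replicate number as a block the count was 2, and the samples share only that number. Normalization, median centring and removal of probe sets for several genes changed none of these calls.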
